A study of Mus musculus with 16 samples.

Results

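The Trem2 foam cell program comprised 8 genes of the 48432 in the table: *Trem2*, *Tyrobp*, *Spp1*, *Cd9*, *Lgals3*, *Gpnmb*, *Fabp4* and *Fabp5*. They were chosen by symbol, as the receptor, its adaptor and genes that lipid-laden macrophages are known to express. The rule used no measured value, but earlier results of these data were known when the choice was made. Of the 8 genes, 6 had values above 0 in every group, while *Gpnmb* and *Lgals3* were listed at 0 throughout.

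RNA was sequenced from thioglycolate-elicited mouse peritoneal macrophages (PM) that were taken 5 days after the injection and loaded with oxidized LDL (oxLDL, 50 μg/ml) for 48 h. The first group was LDAH-Tg PM, labelled as LDAH overexpression, from mice with a hemizygous transgene driven by the *Csf1r* promoter and its intronic enhancer, which is active in macrophages and granulocytes and thus leaves other cell types outside the model. The label of their WT controls mentions ApoE besides LDAH, and the sources used here do not state whether either group of that line lacked *Apoe*. The third group was LDAH-KO PM, from mice in which a cassette replaced early coding exons of *Ldah* in every cell, and the fourth was PM of their own WT controls. All groups carry the strain label C57BL/6J and had the same oxLDL treatment, and no group without oxLDL was included, so the values describe loaded cells alone. The labels give no age. The transgenic line was founded in a mixed background (B6D2F1) and crossed to C57BL/6, while the KO line was made in C57BL/6. Each of the 4 groups had 4 samples, 16 in all.

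The receptor TREM2 binds lipids, lipoproteins and apoptotic debris at the surface of myeloid cells and has no signalling motif of its own. It passes the signal through the adaptor TYROBP (DAP12), whose phosphorylated motif recruits the kinase SYK. In atherosclerotic plaques and in fat tissue, *Trem2* marks lipid-rich macrophages that also express the secreted phosphoprotein osteopontin (*Spp1*), the tetraspanin *Cd9*, galectin-3 (*Lgals3*), the transmembrane glycoprotein *Gpnmb* and the fatty acid chaperones *Fabp4* and *Fabp5*.

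Promoter windows are shown for *Trem2*, the receptor that gives the program its name, and for *Spp1* and *Cd9*, which had the lowest ratios of the set in LDAH-Tg PM. RefSeq (GRCm38.p6) windows matched 5 of the 8 genes. Each sequence holds the 250 bases before the annotated start and reads 5′ to 3′ along the gene. The *Trem2* window lies at chr17:48346151-48346400 on the plus strand. Its capitals mark an AP-1 type match (TGANTCA) at -9 to -3, with -1 as the last base before the start. *Spp1* has 2 windows. In the 1 shown, at chr5:104434861-104435110 on the plus strand, capitals mark a PU.1 type match (GAGGAAGT) at -113 to -106. The *Cd9* window at chr6:125494761-125495010 on the minus strand has an M-box core (CACATG) at -38 to -33.
Trem2: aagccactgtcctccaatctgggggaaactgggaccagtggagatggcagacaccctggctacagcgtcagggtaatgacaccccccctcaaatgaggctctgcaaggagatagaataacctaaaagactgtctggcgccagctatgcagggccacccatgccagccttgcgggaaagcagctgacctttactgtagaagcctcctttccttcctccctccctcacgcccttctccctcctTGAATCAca
Spp1: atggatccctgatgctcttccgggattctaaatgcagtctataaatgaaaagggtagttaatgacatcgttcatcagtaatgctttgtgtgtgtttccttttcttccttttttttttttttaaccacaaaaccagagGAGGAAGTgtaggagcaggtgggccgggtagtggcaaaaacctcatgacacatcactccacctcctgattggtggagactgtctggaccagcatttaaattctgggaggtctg
Cd9: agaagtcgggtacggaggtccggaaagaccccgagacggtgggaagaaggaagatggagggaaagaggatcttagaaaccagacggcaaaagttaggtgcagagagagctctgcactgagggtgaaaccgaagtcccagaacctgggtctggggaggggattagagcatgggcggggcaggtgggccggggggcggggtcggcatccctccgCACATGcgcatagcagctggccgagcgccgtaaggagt
The GC content of these windows was 56% for *Trem2*, 43.6% for *Spp1* and 61.6% for *Cd9*, and they held 4, 3 and 16 CG dinucleotides in that order. Both strands of these windows, each with the 50 bases after the start added, were searched for 6 motifs, which do not contain one another. The AP-1 letters were found in 7.81% of the 32851 RefSeq windows, the PU.1 letters in 3.20% and the M-box core in 14.2%. The *Gpnmb* window had an AP-1 type match (TGACTCA) at 8 to 14 after the start. The *Lgals3* window and the other *Spp1* window (chr5:104435942-104436191) had none of the 6 motifs. No window of the set held the E-box and CLEAR core (CACGTG, 7.15% of all windows), the DR1 repeat (0.0396%) or the DR4 repeat (0.0152%). These matches are descriptions of letters in a window and not measured binding sites.

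Levels are mean TPM per group as calculated by the authors. TPM is scaled to transcript length and to a total of 1000000 per group, so levels can be compared between genes. The means carry no value per mouse, so no SD, p-value or replicate check can be given for any difference in the text, and the depth is unknown. Ratios are on the log2(TPM + 0.5) scale and cover genes that averaged 1 TPM or more over the groups compared, with no group at 0. A ratio is said to pass a factor of 1.5 as a matter of size and not of a test. In bulk RNA, fewer cells of a type and less RNA per cell cannot be told apart.

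*Ldah* followed the labels, with 124 TPM in LDAH-Tg PM against 28.5 TPM in their WT controls, and 27.9 TPM in LDAH-KO PM against 44.5 TPM in their WT controls. From a gene's mean, the exons behind the remaining reads of the KO cannot be told. *Apoe* ranged between 7947 and 10404 TPM over the 4 groups. Of the macrophage markers, *Cd68* was at 4895 TPM in LDAH-Tg PM, 4959 TPM in their WT controls, 3023 TPM in LDAH-KO PM and 3321 TPM in their WT controls, whereas *Lyz2* was listed at 0 in 3 groups and at 10105 TPM in LDAH-Tg PM. The 7 macrophage markers without *Lyz2* summed to 5255 TPM in LDAH-Tg PM, 5374 TPM in their WT controls, 3594 TPM in LDAH-KO PM and 3970 TPM in their WT controls. *Cd68* is part of these sums and makes up most of each, so they describe *Cd68* more than the list. Of the 7 markers, 4 were lower and 3 higher in the WT controls of LDAH-Tg than in those of LDAH-KO. Adipocyte markers, which bear on *Fabp4*, were under 1 TPM in every group for 5 of 5 genes, with *Lep* and *Cfd* at 0 in all groups and sums between 0.0193 and 0.1002 TPM. Sums of the endothelial markers lay between 1.64 and 2.21 TPM, nearly all from *Kdr*, and those of resident peritoneal macrophage markers between 8.08 and 8.61 TPM. Those of monocyte, mast cell, B cell, T cell and platelet markers did not exceed 2.01 TPM in any group. Of the neutrophil markers, *S100a8* reached 107 TPM and the other 3 stayed under 1 TPM.

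The 6 genes with values were among the most abundant transcripts of these foam cells. Their TPM summed to 27364 in LDAH-Tg PM (2.74% of all TPM), 31589 in their WT controls (3.16%), 29351 in LDAH-KO PM (2.94%) and 27413 in their WT controls (2.74%). *Fabp5*, *Tyrobp* and *Spp1* were the 3 most abundant in all 4 groups, followed by *Trem2*, *Cd9* and *Fabp4* in this order. The only change of order was between *Tyrobp* and *Fabp5* at the top, where *Tyrobp* led in LDAH-Tg PM and *Fabp5* led in the other 3 groups. The highest of the 6 genes exceeded the lowest by 6.52 times in LDAH-Tg PM, 6.24 times in their WT controls, 6.205 times in LDAH-KO PM and 6.89 times in their WT controls. Without values per mouse it cannot be said which neighbours in this order differ beyond their spread.

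**Figure D1:**
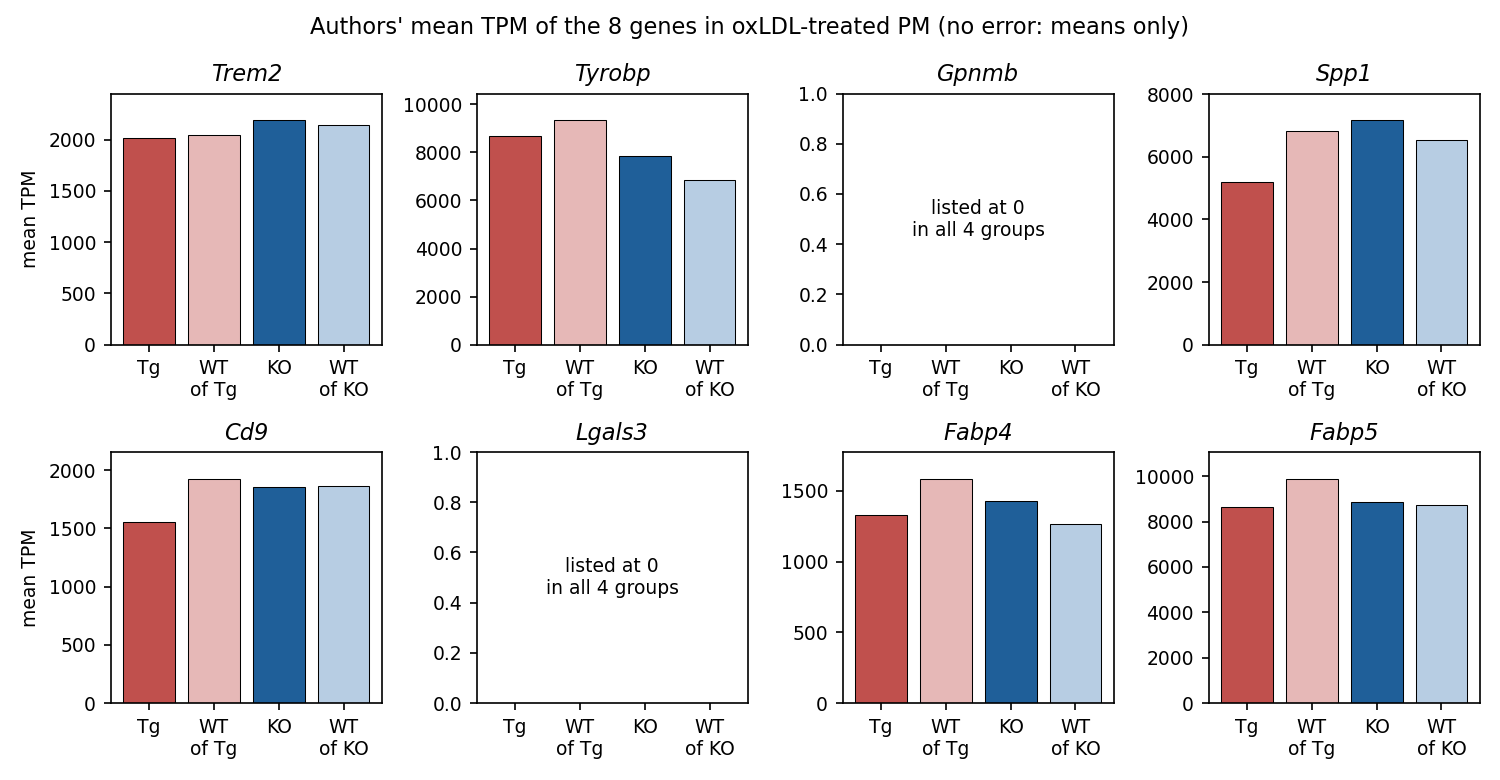
Mean TPM (vertical axes, each with its own scale and starting at 0) of the 8 genes in LDAH-Tg PM, their WT controls, LDAH-KO PM and their WT controls, without error bars because only group means were available. *Spp1* is lowest in LDAH-Tg PM at 5177 TPM, *Trem2* lies between 2011 and 2187 TPM in all 4 groups, and *Gpnmb* and *Lgals3* have no bars because they are listed at 0.

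The means of the receptor itself lay close together. *Trem2* (ENSMUSG00000023992.14, chromosome 17 of GRCm38, 48346401 to 48354147, plus strand) had 2011 TPM in LDAH-Tg PM, against 2046 TPM in their WT controls. It had 2187 TPM in LDAH-KO PM, against 2145 TPM in their WT controls. The log2 ratios were -0.02 in LDAH-Tg PM and 0.03 in LDAH-KO PM, the closest to 0 of the set in the transgenic comparison. All 4 means lay within a factor of 1.09 of each other, the narrowest range of the 6 genes.

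*Tyrobp* (ENSMUSG00000030579.10, chromosome 7, 30413760 to 30417585, plus strand) had rank 3 by TPM in LDAH-Tg PM and rank 4 in the other groups among genes with values, since several abundant transcripts are listed at 0. Its mean was 8671 TPM in LDAH-Tg PM against 9333 TPM in their WT controls, and 7871 TPM in LDAH-KO PM against 6857 TPM in their WT controls. The adaptor thus differed by -7.09% in LDAH-Tg PM (log2 ratio -0.11) and by 14.8% in LDAH-KO PM (log2 ratio 0.20), the highest ratio of the set in the KO. Both WT means lay on opposite sides of the other means, since *Tyrobp* was highest in the WT controls of LDAH-Tg and lowest in those of LDAH-KO.

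Transcripts of the adaptor and of the receptor were present in unequal amounts, and protein was not measured here. The ratio of *Tyrobp* to *Trem2* TPM was 4.31 in LDAH-Tg PM against 4.56 in their WT controls, and 3.60 in LDAH-KO PM against 3.20 in their WT controls. The other adaptor that pairs with *Trem2*, *Hcst* (DAP10), lies tail to tail with *Tyrobp*, 126 bp away. It was at 91.6 TPM in LDAH-Tg PM against 88.9 TPM in their WT controls, and at 73.9 TPM in LDAH-KO PM against 60.6 TPM in their WT controls. *Tyrobp* therefore exceeded *Hcst* by 94.6 to 113 times over the groups. *Fcer1g*, the adaptor of Fc receptors, was at 3336 TPM in LDAH-Tg PM, 3241 TPM in their WT controls, 2327 TPM in LDAH-KO PM and 2293 TPM in their WT controls, which is between 0.296 and 0.385 of the *Tyrobp* level.

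*Spp1* and *Cd9* had the lowest ratios of the set in LDAH-Tg PM. *Spp1* encodes osteopontin, a secreted integrin and CD44 ligand. The gene (ENSMUSG00000029304.14, chromosome 5, 104435118 to 104441050, plus strand) had 5177 TPM in LDAH-Tg PM against 6825 TPM in their WT controls, a difference of -24.1% (log2 ratio -0.40). The log2 ratio was 0.13 in LDAH-KO PM, with 7158 TPM against 6539 TPM in their WT controls. Transgenic PM were thus the low group, and the other 3 means lay between 6539 and 7158 TPM. It overlaps the gene model *Gm42793* on the same strand, with which 5.85% of its 100-base stretches are shared, so the split of reads between them is uncertain to that extent.

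The tetraspanin CD9 organizes membrane microdomains with integrins. *Cd9* (ENSMUSG00000030342.8, chromosome 6, 125460266 to 125494791, minus strand) had 1550.4 TPM in LDAH-Tg PM, against 1924 TPM in their WT controls (log2 ratio -0.31). In LDAH-KO PM its mean was 1857 TPM, against 1861 TPM in their WT controls (log2 ratio -0.003). As with *Spp1*, LDAH-Tg PM stood apart below 3 groups that lay close together. The locus given in the table runs on to 125509135. *Gm28809* and *Gm26728* overlap the gene on the opposite strand, and whether the counting used strand is not given in the sources used here.

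The fatty acid-binding proteins carry fatty acids in the cytosol, and FABP4 and FABP5 are forms found in macrophages and adipocytes. Their genes lie on chromosome 3, 187 kb apart. *Fabp4* (ENSMUSG00000062515.3, 10204088 to 10208576, minus strand) had 1330.0 TPM in LDAH-Tg PM against 1583 TPM in their WT controls (log2 ratio -0.25). It had 1427 TPM in LDAH-KO PM against 1268 TPM in their WT controls (log2 ratio 0.17). The KO mean was thus the higher and the transgenic mean the lower of its pair.

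*Fabp5* (ENSMUSG00000027533.10, 10012548 to 10016607, plus strand) was the more abundant form by a factor of 6.205 to 6.894 over the groups. Its mean was 8624 TPM in LDAH-Tg PM against 9877 TPM in their WT controls (log2 ratio -0.20). For LDAH-KO PM it was 8852 TPM, against 8743 TPM in their WT controls (log2 ratio 0.02). The WT controls of LDAH-Tg were the high group here, and the other 3 means lay between 8624 and 8852 TPM. Of its 100-base stretches, 2.19% are shared with the gene models *Gm14328* and *Gm6166*.

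*Gpnmb* (ENSMUSG00000029816.10, chromosome 6, 49036546 to 49070929, plus strand), a lysosomal and surface glycoprotein, and *Lgals3* (ENSMUSG00000050335.16, chromosome 14, 47367751 to 47386160, plus strand), a secreted galactoside-binding lectin, were listed at 0 TPM in all 4 groups. Neither shares a 100-base stretch with another gene model. The table also lists *Ftl1*, *Psap*, *Ctsb* and *Ctsd* at 0 in all groups and *Fth1* at 0 in 3 of the 4 and at 0.116 TPM in LDAH-KO PM, although ferritins and these lysosomal genes are transcribed in nearly every cell. In addition, 13 genes are at 0 in at least 1 group and at 1000 TPM or more in another. A listed 0 is therefore reported as such, with no statement on whether the 2 genes were transcribed, and no ratio is given for them.

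Compared with their WT controls, LDAH-Tg PM had lower means of all 6 genes with values. Any lower mean was found in 49.5% of the 11395 genes compared, and in 39.6% of the 169 genes that averaged 1000 TPM or more. Many genes of this abundant class encode ribosomal proteins, most of which were higher in LDAH-Tg PM. The share of lower means was therefore larger among its other genes. The median log2 ratio of the 6 genes was -0.22, beside 0.002 for all genes and 0.04 for those of at least 1000 TPM. None of the 6 passed a factor of 1.5, which 1.95% of all genes did in either direction. Among the 169 abundant genes, 6 had a lower ratio than *Spp1*, 11 than *Cd9*, 14 than *Fabp4*, 18 than *Fabp5*, 34 than *Tyrobp* and 61 than *Trem2*. *Spp1*, *Cd9* and *Fabp4* were below the 10th percentile of those genes (-0.21), whereas *Fabp5*, *Tyrobp* and *Trem2* were within the central range. After quantile normalization *Tyrobp* turned to 0.05 and *Fabp5* was at -0.05, with *Trem2* at -0.05, *Fabp4* at -0.28, *Spp1* at -0.34 and *Cd9* at -0.35. That step gives equal ranks equal values, so the ratios of *Tyrobp* and *Fabp5* there reflect only their exchange of ranks 3 and 4. Of the 7 macrophage markers with values, 6 were lower and 1 higher (median -0.09). The lowest ratios were those of *Adgre1*, at 22.4 TPM in LDAH-Tg PM against 33.1 TPM in their WT controls (log2 ratio -0.55), and *Itgam*, at 110.2 TPM in LDAH-Tg PM against 144 TPM in their WT controls (-0.39). Their part in the lower means of the 6 genes was not tested.

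**Figure D2:**
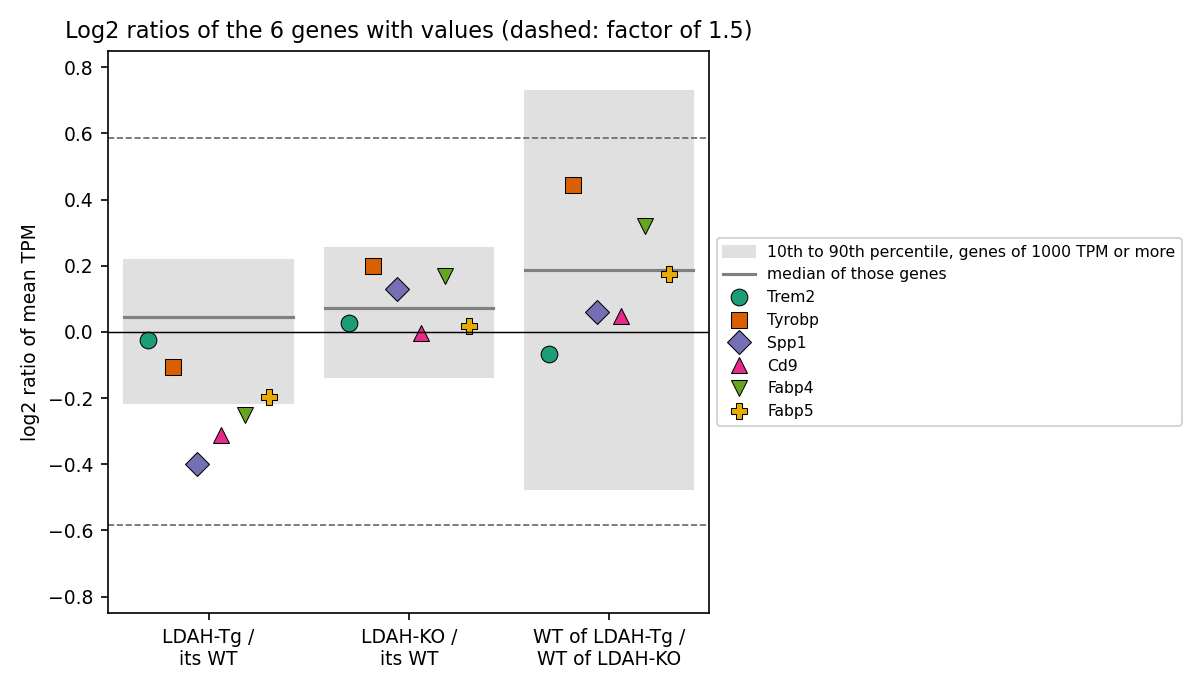
Log2 ratios of mean TPM (vertical axis) of the 6 genes with values in 3 comparisons, over the median and the 10th to 90th percentile range of genes with at least 1000 TPM. *Spp1*, *Cd9* and *Fabp4* fall below that range in LDAH-Tg PM, at -0.40, -0.31 and -0.25, and no gene reaches the dashed lines at a factor of 1.5.

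In LDAH-KO PM, 5 of the 6 genes had a higher mean than in the WT controls and *Cd9* differed by -0.214%. A higher mean of any size was found in 33.4% of the 11289 genes compared, but in 68.8% of the 173 genes of at least 1000 TPM, the class to which all 6 genes belong. The ribosomal protein genes of that class were mostly higher in LDAH-KO PM as well. The share over all genes was 50.0% after median-ratio scaling and 52.1% after quantile normalization. The median log2 ratio of the 6 genes was 0.08, beside -0.08 for all genes and 0.07 for the abundant class. None passed a factor of 1.5, against 2.22% of all genes and 0 of the 173. *Tyrobp* had 22 abundant genes above it, *Fabp4* 36, *Spp1* 54, *Trem2* 106, *Fabp5* 110 and *Cd9* 120, so the set was spread through the class. After quantile normalization *Trem2* and *Cd9* were lower and *Spp1* and *Fabp4* higher. *Tyrobp* and *Fabp5* were at 0 there, which their equal ranks in both groups (4 for *Tyrobp* and 2 for *Fabp5*) fixed whatever their TPM. Summed fibroblast markers were at 15.4 TPM in LDAH-KO PM against 29.8 TPM in their WT controls, with *Pdgfra*, *Dcn* and *Col3a1*, 3 of 3 genes above the filter, lower by more than a factor of 1.5 (1.83% of all genes were). Mesothelial markers summed to 2.70 TPM in LDAH-KO PM against 5.41 TPM in their WT controls. Their part in the ratios of the 6 genes was not tested.

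The genotypes were set side by side within each line. *Trem2*, *Tyrobp*, *Spp1*, *Fabp4* and *Fabp5*, 5 of the 6 genes, were lower in LDAH-Tg PM and higher in LDAH-KO PM, each relative to its own WT controls. This combination held for 1853 of 10858 genes (17.1%) and for 41 of the 133 genes of at least 1000 TPM in both comparisons (30.8%). Many of those 133 genes encode ribosomal proteins, mostly higher in both genotypes, so the combination was more frequent among the others. For *Trem2* and *Fabp5* at least 1 of the 2 ratios was within 0.03 of 0, so that the direction there rests on differences of a few percent. *Spp1*, *Fabp4* and *Tyrobp* had ratios beyond 0.10 in both genotypes. After quantile normalization only *Spp1* and *Fabp4* still had the combination, while median-ratio scaling added *Cd9* to it (0.08 in LDAH-KO PM). For *Tyrobp* and *Fabp5* the loss after quantile normalization was fixed by equal ranks in both groups of the KO line, so it says nothing on their TPM ratios.

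**Figure D3:**
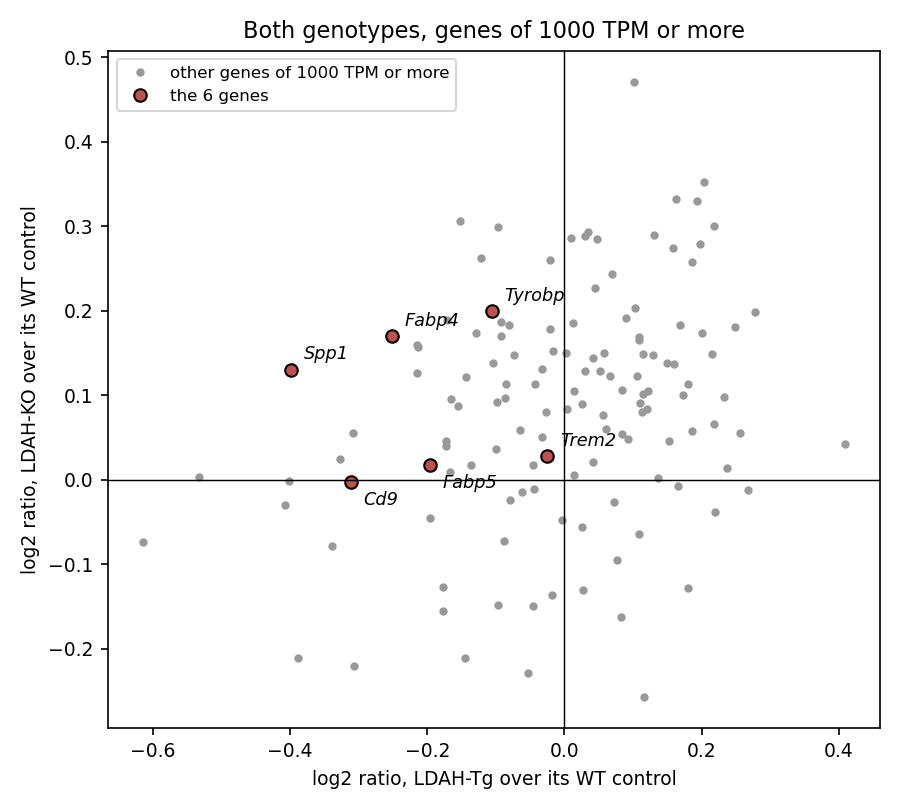
Log2 ratio of LDAH-Tg PM over their WT controls (horizontal axis) against that of LDAH-KO PM over their WT controls (vertical axis) for the 133 genes of at least 1000 TPM in both, 1 point per gene. *Spp1*, *Fabp4*, *Tyrobp*, *Fabp5* and *Trem2* lie in the upper left part with 36 other genes, and *Cd9* lies just under the horizontal line at -0.003.

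WT controls of LDAH-Tg had a mean higher than that of the WT controls of LDAH-KO for 5 of the 6 genes. This held for 39.3% of all 11404 genes and 64.2% of the 173 genes of at least 1000 TPM, and the median of the 6 genes (0.12) was below that of the abundant class (0.19). The log2 ratios were 0.44 for *Tyrobp*, 0.32 for *Fabp4*, 0.18 for *Fabp5*, 0.06 for *Spp1* and 0.05 for *Cd9*, and -0.07 for *Trem2*. None passed a factor of 1.5, which 38.6% of all genes and 25.4% of the 173 abundant genes did. The median of all genes was shifted to -0.17 in this comparison. Relative to it, by median-ratio scaling, all 6 genes were higher, between 0.12 for *Trem2* and 0.63 for *Tyrobp*. By that scaling 50% of all genes were higher, and *Tyrobp* passed the factor, as did 37.0% of all genes. After quantile normalization *Trem2* (-0.33), *Spp1* (-0.23), *Cd9* (-0.15) and *Fabp5* (-0.13) were lower and *Fabp4* was at 0.19. *Tyrobp* was at 0 because it had rank 4 in both WT groups. The line, the *Apoe* genotype as labelled and any batch cannot be told apart in these values. Cell markers differed between the WT controls as well. Of 7 macrophage markers 4 were lower and 3 higher (median -0.01), among them *Adgre1* at -2.13 and *Itgam* at -0.92, *S100a8* was at 0.74, and the 3 fibroblast markers with values were lower (median -0.61). Their part in the ratios of the 6 genes was not tested. For *Tyrobp* and *Fabp4*, the mean of LDAH-Tg PM lay between those of both WT groups.

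Patterns over the 4 groups were compared by the distance between log2(TPM + 0.5) values centred on each gene's mean. The nearest pair of the set was *Fabp4* and *Fabp5* (0.121), followed by *Spp1* and *Cd9* (0.148), and the farthest was *Tyrobp* and *Spp1* (0.539). Over all protein-coding genes of at least 10 TPM, the nearest to *Trem2* were *Med19*, *Trmt61a* and *Rbks*, at distances of 0.0075 to 0.016, each with means between 12.3 and 23.9 TPM. Nearest to *Tyrobp* were *Cdkn2d*, *Snrnp27* and *Tmem261* (0.031 to 0.038). *Spp1* was nearest to *H2-M3*, *Atxn10* and *H2-K1* (0.060 to 0.088), the first and last of which encode MHC class I heavy chains, and *Cd9* to *B4gat1*, *Eif2b3* and *AI467606* (0.029 to 0.044). *Fabp4* was nearest to *Thoc7*, *Paqr7* and the complement gene *C1qc* (0.061 to 0.062), and *Fabp5* to *Acadl*, an enzyme of fatty acid oxidation, *Mogs* and *Lyrm4* (0.033 to 0.047). With 4 points per gene, many genes lie close to any pattern, and likeness here is a description.

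Downstream of *Trem2* and *Tyrobp*, 15 of 15 listed signalling genes had values. In LDAH-Tg PM 7 were lower and 8 higher (median 0.04; 50.5% of all genes were higher), and in LDAH-KO PM 9 were lower and 6 higher (median -0.10; 66.6% of all genes were lower). None passed a factor of 1.5 in either. *Syk* had 134 TPM in LDAH-Tg PM against 123 TPM in their WT controls, and 135 TPM in LDAH-KO PM against 159 TPM in their WT controls. The adaptor *Card9*, which links SYK to NF-κB, had the largest ratio in LDAH-Tg PM, with 80.3 TPM against 58.9 TPM in their WT controls (log2 ratio 0.44), followed by its partner *Malt1* (0.24) and the exchange factor *Vav1* (0.21). In LDAH-KO PM the largest by size were the PI3-kinase subunit *Pik3r1* (-0.39), the phosphatase *Inpp5d* (-0.38), which restrains TYROBP signals, and *Hcst* (0.29).

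TREM2 is cut from the surface by ADAM10 and ADAM17, and its stub by γ-secretase. Of the 9 genes of this list, 7 were lower and 2 higher in LDAH-Tg PM, with a median of -0.10, where 49.5% of all genes were lower and their median was 0.002. In LDAH-KO PM 6 were lower, 3 were higher and the median was -0.10, where 66.6% of all genes were lower and their median was -0.08. *Adam10* was at 35.7 TPM in LDAH-Tg PM against 43.9 TPM in their WT controls (-0.30), and at 74.6 TPM in LDAH-KO PM against 87.9 TPM in their WT controls (-0.24). *Aph1a* was at -0.28 in LDAH-Tg PM, and *Psenen* was at 0.26 in LDAH-KO PM.

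Other receptors that signal through TYROBP were less abundant than *Trem2*. *Cd300lb* had 257 TPM in LDAH-Tg PM, 244 TPM in their WT controls, 337 TPM in LDAH-KO PM and 358 TPM in their WT controls. *Clec5a* was at 26.1 TPM in LDAH-Tg PM against 34.5 TPM in their WT controls (log2 ratio -0.39), and at 55.9 TPM in LDAH-KO PM against 54.8 TPM in their WT controls. Of the 8 listed genes, 4 had values in LDAH-Tg PM (2 lower and 2 higher, median -0.07, with 49.5% of all genes lower) and 5 in LDAH-KO PM (2 lower and 3 higher, median 0.03, with 66.6% of all genes lower). *Trem1* and *Trem3*, which lie 99.5 kb and 87.6 kb from *Trem2*, were at 0.179 TPM or less in every group, and *Siglech* was listed at 0 in all 4. *Treml1*, 5.77 kb from *Trem2*, had 3.62 TPM in LDAH-Tg PM against 1.91 TPM in their WT controls (log2 ratio 0.77). This passed the factor of 1.5, by which 1.26% of all genes and 2.56% of those averaging 1 to 10 TPM were higher. *Treml1* was under 1 TPM in both groups of the KO line. *Treml2* had log2 ratios of -0.05 in LDAH-Tg PM and -0.31 in LDAH-KO PM.

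The wider list of 35 lipid-associated macrophage genes had values for 29 in LDAH-Tg PM, of which 24 were lower and 5 higher (median -0.07, with 49.5% of all genes lower). For LDAH-KO PM 26 had values, 13 lower and 13 higher (median 0.01, with 66.6% of all genes lower). Of the 26 genes with both ratios, 11 (42.3%) were lower in LDAH-Tg PM and higher in LDAH-KO PM, beside 17.1% of all genes and 30.8% of those of at least 1000 TPM. The fatty acid transporter and oxLDL receptor *Cd36* had the lowest ratio in LDAH-Tg PM, with 2113 TPM against 3276 TPM in their WT controls (-0.63), the only gene of the list past a factor of 1.5, by which 0.685% of all genes were lower. It was followed by cathepsin S (*Ctss*), at 5822 TPM in LDAH-Tg PM against 8294 TPM in their WT controls (-0.51), and lysosomal acid lipase (*Lipa*), at 709 TPM in LDAH-Tg PM against 1007 TPM in their WT controls (-0.51). *Cd36* and *Ctss* were listed at 0 in both groups of the KO line. In LDAH-KO PM *Csf1* was at 1.60 TPM against 3.66 TPM in their WT controls (-0.98), the only gene past the factor. Lower by it were 1.83% of all genes and 4.50% of those averaging 1 to 10 TPM. *Csf1* was followed by *Itgax* (-0.46), *Gdf15* (0.17) and *Clec7a* (-0.17). *Ctsb*, *Ctsd* and *Mmp12* were listed at 0 in all 4 groups, *Ctsl* in all but LDAH-Tg PM (5880.4 TPM) and *Lpl* in all but the WT controls of LDAH-KO (3544 TPM).

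**Figure D4:**
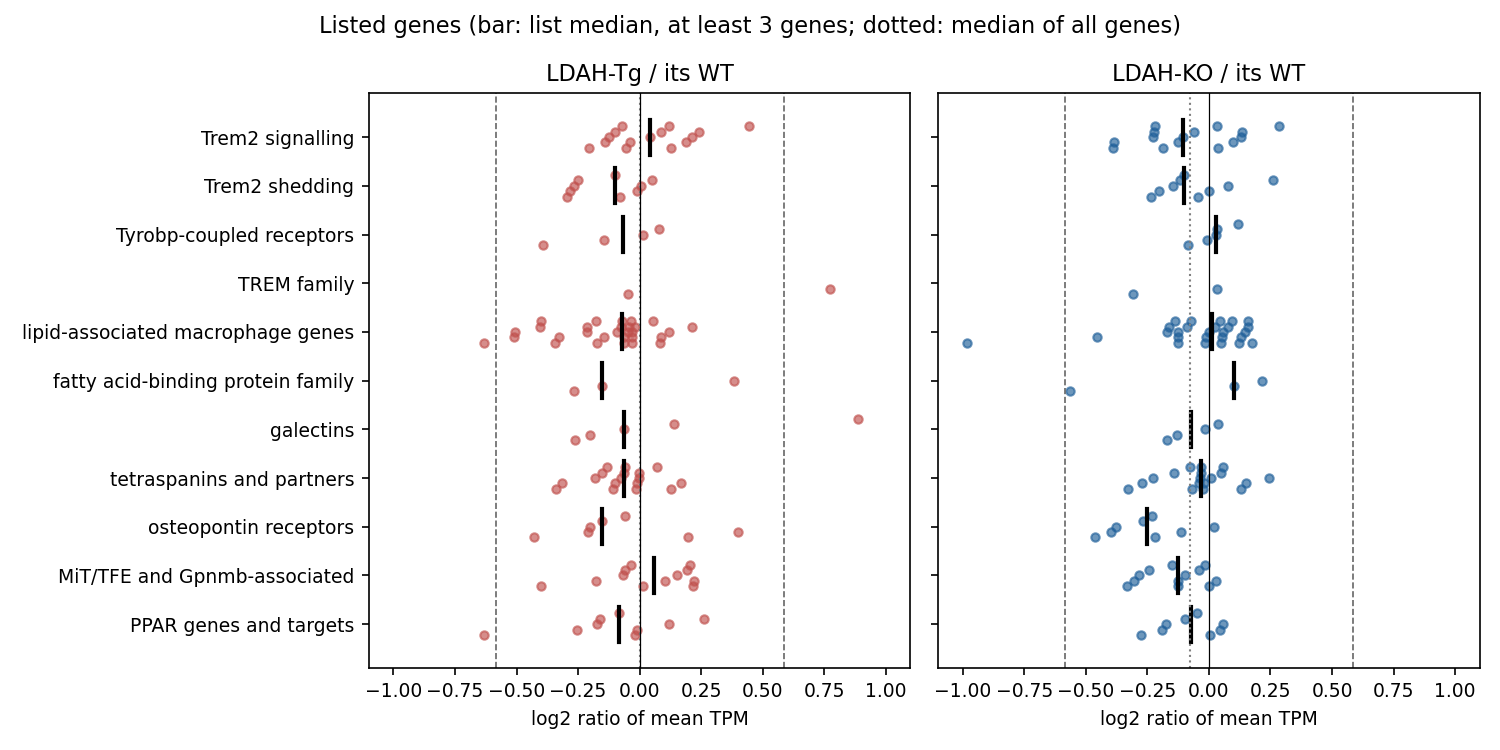
Log2 ratios (horizontal axis) of the listed genes in LDAH-Tg PM (left) and LDAH-KO PM (right) over their WT controls, 1 point per gene, with the list median as a bar, the median of all genes as a dotted line and a factor of 1.5 as dashed lines. *Cd36* (-0.63), *Treml1* (0.77) and *Lgals4* (0.89) lie past the factor in LDAH-Tg PM, and *Csf1* (-0.98) does in LDAH-KO PM.

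Of 12 other fatty acid-binding and related retinoid-binding proteins, 3 had values. *Fabp7* was at 29.4 TPM in LDAH-Tg PM against 35.5 TPM in their WT controls (-0.27) and at 49.1 TPM in LDAH-KO PM against 42.2 TPM in their WT controls (0.22), and *Fabp3* had ratios of -0.15 in LDAH-Tg PM and 0.10 in LDAH-KO PM, the same directions as *Fabp4* and *Fabp5*. *Fabp9*, *Fabp12* and *Pmp2*, which lie near *Fabp4*, were under 0.1 TPM in every group with at least 1 group at 0, as were *Fabp1*, *Fabp2*, *Fabp6*, *Crabp1* and *Crabp2*.

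Among the galectins, *Lgals1* was the abundant member with values, at 5013 TPM in LDAH-Tg PM against 5236 TPM in their WT controls and 5761 TPM in LDAH-KO PM against 5820.5 TPM in their WT controls. In LDAH-Tg PM 3 listed genes were lower and 2 higher (median -0.06, with 49.5% of all genes lower). In LDAH-KO PM 3 were lower and 1 higher (66.6% of all genes were lower), with a median of -0.07 that turned to 0.01 after median-ratio scaling. The galectin-3-binding protein *Lgals3bp* was at -0.26 in LDAH-Tg PM and -0.17 in LDAH-KO PM, *Lgals9* at -0.20 in LDAH-Tg PM and 0.04 in LDAH-KO PM, and *Lgals8* at 0.14 in LDAH-Tg PM and -0.13 in LDAH-KO PM. *Lgals4* was at 3.19 TPM in LDAH-Tg PM against 1.49 TPM in their WT controls (0.89). Higher by the factor of 1.5 were 1.26% of all genes and 2.56% of those averaging 1 to 10 TPM. *Lgals12* was listed at 0 in all groups, and *Lgals2* in LDAH-Tg PM.

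Tetraspanins and their partners, the family of *Cd9*, had 17 genes with values in LDAH-Tg PM, 14 lower and 3 higher with a median of -0.06 (49.5% of all genes were lower). In LDAH-KO PM 18 had values, 12 lower and 6 higher (66.6% of all genes were lower), with a median of -0.03 that turned to 0.04 after median-ratio scaling. *Cd63*, the lysosomal and exosomal tetraspanin, was the most abundant and exceeded *Cd9* by 3.05 times in LDAH-Tg PM, against 2.57 times in their WT controls, and by 2.46 times in LDAH-KO PM, against 2.36 times in their WT controls. *Cd53*, a leukocyte tetraspanin, had 1257 TPM in LDAH-Tg PM against 1590.2 TPM in their WT controls, or -0.34 on the log2 scale, close to *Cd9*. *Tspan7* was at -0.31 and *Tspan3* at -0.18 in LDAH-Tg PM, and in LDAH-KO PM *Cd81* was at -0.27, *Tspan17* at 0.24 and *Tspan7* at -0.23.

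For the receptors of osteopontin, 5 were lower and 2 higher in LDAH-Tg PM (median -0.15, with 49.5% of all genes lower), and 7 lower and 1 higher in LDAH-KO PM (median -0.25, with 66.6% of all genes lower). *Itgb1*, the β1 integrin, was at 136 TPM in LDAH-Tg PM against 183 TPM in their WT controls (-0.43), while *Itgav*, the αv integrin, was at 54.4 TPM in LDAH-Tg PM against 41.1 TPM in their WT controls (0.40). *Cd44* was lower in both genotypes (-0.21 in LDAH-Tg PM and -0.27 in LDAH-KO PM), and in LDAH-KO PM *Itgb3* was at -0.46 and *Itga4* at -0.40. The relatives of *Spp1* in its gene cluster, *Ibsp*, *Dmp1*, *Dspp* and *Mepe*, were listed at 0 in all groups.

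MITF, TFEB and TFE3 are known to drive *Gpnmb*. Their list had 12 genes with values, with 5 lower and 7 higher in LDAH-Tg PM (median 0.06, with 50.5% of all genes higher). In LDAH-KO PM 11 were lower and 1 higher (66.6% of all genes were lower), with a median of -0.13 beside -0.08 for all genes, and of -0.05 after median-ratio scaling. *Tfeb* was at 120 TPM in LDAH-Tg PM against 104 TPM in their WT controls (0.21), and *Flcn*, which restrains these factors, was at 0.22. *Mitf* (-0.28), *Tfe3* (-0.30) and *Fnip2* (-0.33) had the largest ratios by size in LDAH-KO PM. Cathepsin K (*Ctsk*), a known target, was at 889 TPM in LDAH-Tg PM against 1174 TPM in their WT controls (-0.40). *Oscar* was listed at 0 in the WT controls of LDAH-KO.

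*Fabp4* and *Cd36* are known targets of PPARγ. The list of PPAR genes and targets had 7 lower and 2 higher in LDAH-Tg PM (median -0.08, with 49.5% of all genes lower). In LDAH-KO PM 5 were lower and 3 higher (66.6% of all genes were lower), with a median of -0.07 that turned to 0.01 after median-ratio scaling. *Pparg* was at 64.4 TPM in LDAH-Tg PM against 72.0 TPM in their WT controls, and at 151 TPM in LDAH-KO PM against 173 TPM in their WT controls (-0.19). *Ppard* was at 0.26 in LDAH-Tg PM and -0.27 in LDAH-KO PM, and *Cpt1a*, the gate of mitochondrial fatty acid import, at -0.26 in LDAH-Tg PM and -0.18 in LDAH-KO PM.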

How the data were processed

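RNA of oxLDL-treated PM from 16 samples in 4 groups was sequenced by the authors as poly(A)-enriched libraries. Read trimming used Trimmomatic and alignment to mm10 used STAR 2.4.2a. Their processing notes also name bcl2fastq 2.17.1.14, HTSeq, DESeq2 and Cuffdiff 2.2.1, and the tool that made the TPM values is not given in the sources used here. The values deposited by the authors are the mean TPM of each group for 48432 genes, and 1 line with no gene, which holds the column total, was left out. No sample stands alone, so the planned limma fits, values without each replicate and replicate blocks could not be made, and depth is unknown.

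For symbols on more than 1 gene (116 further entries), the entry with the highest mean was taken. Of the identifiers, 99.2% matched GENCODE M21 (GRCm38), the source of gene coordinates. Ratios used a pseudocount of 0.5 TPM, a minimum mean of 1 TPM and no group at 0. The calculation of ratios was run on simulated means with planted ratios and no added spread, which checks the formula alone. The members and the 12 gene lists and 12 marker lists were chosen with earlier results of these data known. Besides the members, *Ldah* and *Apoe*, the rule named up to 3 genes of each list with the largest ratios at 5 TPM or more, listed genes past the factor or with a group at 0, the 3 genes most like each member and the highest gene of each marker list. Some genes that the rule names are not reported here. *Syk*, *Fcer1g*, *Pparg*, *Lgals1*, *Cd63*, *Trem1*, *Trem3*, *Adgre1*, *Itgam*, the ferritins and *Psap* were named outside it, with values seen. Alternatives were pseudocounts of 0.1, 1 and none, no filter, a minimum of 5 TPM, median-ratio scaling, quantile normalization, rescaling over genes above 0 in all groups, and factors of 1.25 and 2. After seeing the data, an alternative that keeps genes with a group at 0 was added. Python 3.11.15, numpy 2.4.6, pandas 2.3.3 and matplotlib 3.10.9 were used.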

Additional observations from a re-analysis of the deposited data

How the results depend on the processing

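No paired analysis was possible because the table holds group means alone, and for the same reason no value without a replicate was computed. In LDAH-Tg PM the median of the 6 genes stayed below 0 in every alternative run. The pseudocount and filter alternatives hardly act on genes this abundant, so only the scalings could move it. It was -0.23 with median-ratio scaling, -0.16 with quantile normalization and -0.23 with rescaling over genes above 0 in all groups. Quantile normalization made 1 of the 6 higher (*Tyrobp*), through its exchange of ranks with *Fabp5*. At the smaller factor tried (0.32 on the log2 scale) the number past it was 1 (*Spp1*), beside 12.6% of all genes. The number of listed genes past the factor was 3 as reported, beside 1.95% of all genes. It was 1 at a minimum mean of 5 TPM (1.08%), 15 at the smaller factor (12.6%) and 0 at a factor of 2 (0.430%).

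In LDAH-KO PM quantile normalization gave a median of 0, with 2 genes lower and 2 higher, and median-ratio scaling left 0 lower. *Tyrobp* and *Fabp5* were at 0 after quantile normalization because each had an equal rank in both groups. Listed genes past the factor numbered 1 as reported, beside 2.22% of all genes. They numbered 2 with a pseudocount of 0.1 (2.87% of all genes), with none (3.07%) and with genes with a group at 0 kept (2.74%). They numbered 0 at a minimum of 5 TPM (0.835%), 10 at the smaller factor (11.9%) and 0 at a factor of 2 (0.558%). Between the WT controls the median of the 6 genes was 0.31 after median-ratio scaling, with 0 lower and 1 past the factor. Of all genes, 50% were lower and 37.0% past the factor at that setting. After quantile normalization the median of the 6 genes was -0.14, with 4 lower and 1 higher, where 49.8% of all genes were lower. At the smaller factor, 1 gene passed, beside 63.3% of all genes. The cause was not tested. The absence of values per mouse limits every ratio here, since differences of the size of those of *Trem2* or *Fabp5* cannot be set against any spread.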
